A study of Mus musculus with 30 samples.

Results

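Sgo1, Ube2c, Cdca8, Smc4, Cks2 and Nusap1 encode proteins of mitosis, and their transcripts were followed in the peripheral blood leukocytes of mice before and after cyclophosphamide, an alkylating agent that kills dividing cells, those of the marrow among them. The 6 genes are 6 of the 13027 features of a 2-colour array. They were selected on their measured levels in these same samples, as mitotic genes with a rise by day 5, and each was found through the gene symbol that the platform annotation gives its probe. Each gene had 1 probe. Because the levels at day 5 chose them, all differences that involve day 5 are given below as descriptions without a test, and so are those that involve day 2, at which earlier results of these data had already singled out Smc4, Cks2 and Nusap1.

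All mice were of the inbred strain DBA/2. There were 4 samples from untreated mice and 4, 4 and 3 samples drawn on days 1, 2 and 5 after intraperitoneal cyclophosphamide at 83 mg per kg. The labels call the samples independently harvested and do not say whether a sample is 1 animal, give no age, and name no vehicle for the untreated group. Every array set blood RNA (Cy5) against a pool of DBA/2 bone marrow cells (Cy3), which the labels call untreated in one place and cyclophosphamide-treated in another. Values are therefore log2 ratios of blood over marrow. On the deposited scale, a value of 0 is an equal signal in both and -1 is a blood signal at 0.5 of the marrow signal. A change is the difference between 2 group means of such ratios. The base of the logarithm is not stated and was taken as 2.

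Cell division is run by waves of transcription and destruction. Genes of mitosis are read out in the late cell cycle, and their proteins are then removed through ubiquitin ligases such as the anaphase-promoting complex. Most circulating leukocytes no longer divide, and their dividing precursors lie in the marrow. Transcripts of mitosis in blood can come from the few cycling cells that circulate or from cells that have only just left the cycle. In bulk RNA, fewer cells of a type and less RNA per cell cannot be told apart.

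Many promoters of such genes carry CCAAT boxes, which bind the factor NF-Y, and a cell cycle genes homology region (CHR), which binds complexes that hold late cell cycle genes off in resting cells. The promoters are shown because the 6 genes did not move together, and these letters are what textbook mitotic promoters share. Of the 6 genes, 5 matched a promoter entry in RefSeq (GRCm38.p6), and Smc4 did not. The 160 bases before the first transcribed base are printed for 4 of them, 5′ to 3′ on the gene's strand. Capitals mark CCAAT or its reverse ATTGG, and TTTGAA or its reverse TTCAAA. The windows are chr2:164769769-164769928 on the plus strand for Ube2c, chr4:124936918-124937077 on the minus strand for Cdca8, chr13:51645072-51645231 on the plus strand for Cks2, and chr2:119618138-119618297 on the plus strand for Nusap1.
Ube2c: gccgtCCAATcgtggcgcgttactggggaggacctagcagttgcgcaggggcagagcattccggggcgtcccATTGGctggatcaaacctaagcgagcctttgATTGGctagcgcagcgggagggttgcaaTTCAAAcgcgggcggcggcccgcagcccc
Cdca8: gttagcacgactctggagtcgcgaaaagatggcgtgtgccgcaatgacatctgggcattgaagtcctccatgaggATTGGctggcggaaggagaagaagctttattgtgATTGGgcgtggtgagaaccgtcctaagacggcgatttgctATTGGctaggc
Cks2: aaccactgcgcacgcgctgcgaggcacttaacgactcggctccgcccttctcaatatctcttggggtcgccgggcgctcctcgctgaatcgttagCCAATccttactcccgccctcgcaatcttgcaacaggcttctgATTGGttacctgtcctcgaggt
Nusap1: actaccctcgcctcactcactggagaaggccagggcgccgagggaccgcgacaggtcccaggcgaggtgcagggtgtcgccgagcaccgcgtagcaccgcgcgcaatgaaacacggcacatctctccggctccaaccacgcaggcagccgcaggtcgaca

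The search covered 300 bases, 250 before the first base and 50 from it on, on both strands, for CCAAT, for TTTGAA and for TTCGAA, which reads the same on both strands. Ube2c held 6 CCAAT boxes in that window and a CHR at -29 to -24. Its boxes at -186 to -182 and -183 to -179 overlap on opposite strands and were counted separately. Cdca8 held 4 CCAAT boxes and a CHR at 14 to 19, counted from the first base, which shares its last base with a CCAAT box. Cks2 held 4 CCAAT boxes and no CHR of these letters. Sgo1 had its matches after the first base, with CCAAT at 3 to 7 and TTCGAA at 28 to 33, and Nusap1 had neither. Among 32851 promoters of the same length in that table, 37.4% held a CCAAT box, 19.2% either CHR form (17.9% TTTGAA and 1.56% TTCGAA), 7.52% both kinds of motif and 1.06% at least 4 CCAAT boxes. Cdca8 and Cks2, with equally many CCAAT boxes but a CHR only in Cdca8, had different time courses in blood, as described next. Nusap1, with neither motif, had the same pattern as Cdca8, and so had Sgo1 and Ube2c, which held both motifs. A link between these letters and the time courses was not tested.

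The data went against a shared rise by day 5. Sgo1, Ube2c, Cdca8 and Nusap1 were low at day 1 and had their highest group mean at day 5. Smc4 and Cks2 had their highest group mean at day 2, and at day 5 Cks2 was back at the untreated level and Smc4 was below it. The 6 genes are therefore described as these 2 patterns. All 24 group means were below 0 on the deposited scale, and that of Ube2c at day 5 came closest to 0. Column medians lay near 0, from -0.00276 to 0.0254, and the normalization is not given. A value of 0 is therefore near the typical ratio of an array and need not be an equal amount of RNA.

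**Figure D1:**
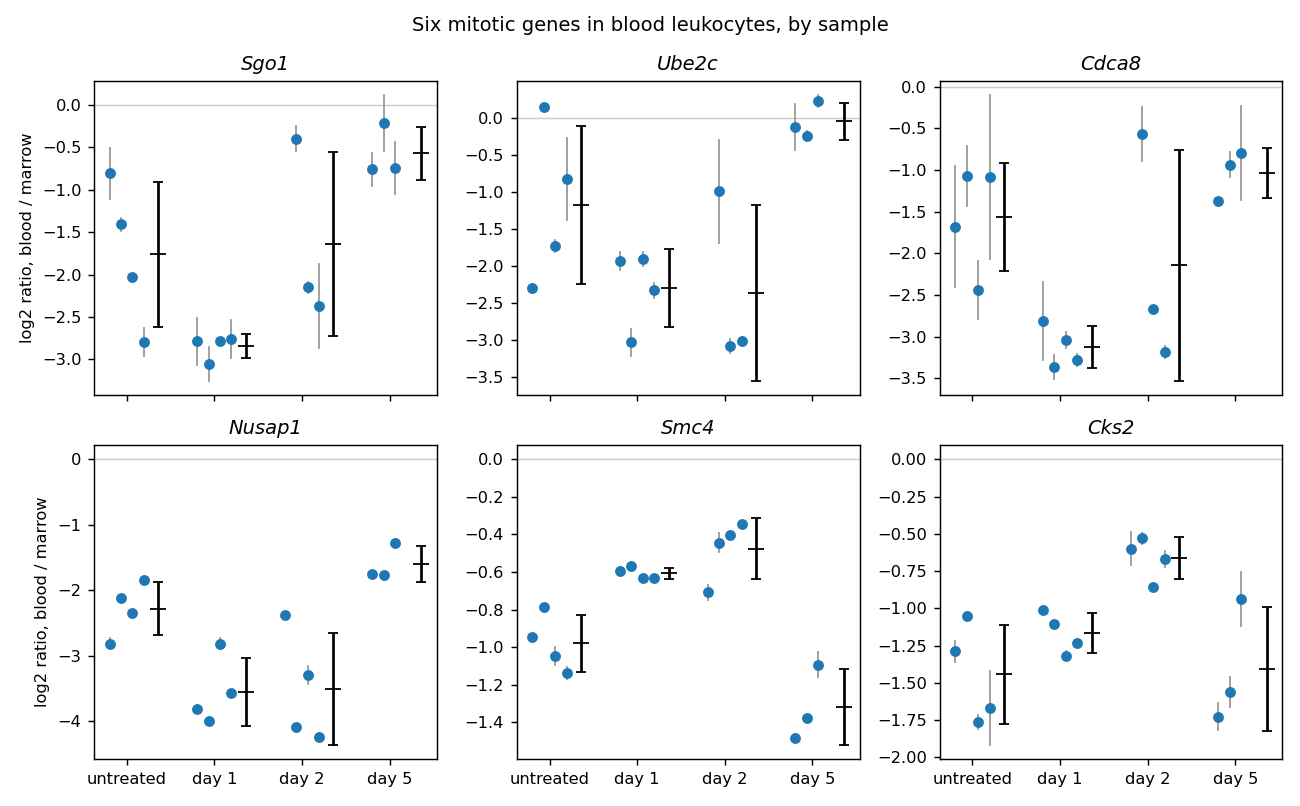
Log2 ratio of blood over marrow for the 6 genes in each blood sample, by day after cyclophosphamide. Blue dots are samples, grey lines join a sample's technical replicates, and black bars give the group mean and SD; Sgo1, Ube2c, Cdca8 and Nusap1 are highest at day 5, while Smc4 and Cks2 peak at day 2.

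Sgo1 (shugoshin, which shields the cohesin at centromeres from removal until the chromatids separate; NCBI Gene 72415) had log2 ratios of -0.81, -1.41, -2.03 and -2.80 in the untreated samples and of -2.79, -3.05, -2.78 and -2.76 at day 1. It had -0.40, -2.15 and -2.37 in the 3 day 2 samples with a value and -0.76, -0.22 and -0.74 at day 5. The untreated samples were spread widely, the day 1 samples lay close together at the level of the lowest untreated one, and all day 5 samples lay above every untreated sample. The nearest of these, -0.81 untreated and -0.76 at day 5, differed by less than the median difference between technical replicates of Sgo1, 0.398. Group means were -1.76 ± 0.85 (SD, n = 4) untreated, -2.84 ± 0.14 (n = 4) at day 1, -1.64 ± 1.08 (n = 3) at day 2 and -0.57 ± 0.31 (n = 3) at day 5. The day 5 mean was 1.19 above untreated (SE 0.45) on the log2 scale, a 2.28-fold higher ratio. Against day 1 it was 2.27 higher (SE 0.45), which is 4.83-fold. The day 2 mean rested on its second replicate, at -0.40. The change from untreated was 0.12 (SE 0.45) with that sample and -0.50 without it.

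Cdca8 (borealin, a subunit of the chromosomal passenger complex that brings Aurora B kinase to centromeres; NCBI Gene 52276) stood at -1.68, -1.07, -2.44 and -1.08 in the untreated samples and at -2.81, -3.36, -3.04 and -3.28 at day 1. At day 2 the 3 samples with a value had -0.57, -2.67 and -3.19, and at day 5 the samples had -1.37, -0.93 and -0.79. Every day 1 sample lay below every untreated sample, and every day 5 sample lay above every day 1 sample. The day 5 and untreated samples overlapped. Group means were -1.57 ± 0.65 (SD, n = 4), -3.12 ± 0.25 (n = 4), -2.14 ± 1.39 (n = 3) and -1.03 ± 0.30 (n = 3) in the order untreated, day 1, day 2 and day 5. The ratio at day 5 was 2.09 above day 1 (SE 0.48), or 4.26-fold, and 0.54 above untreated (SE 0.48). Cdca8 at day 2 differed from untreated by -0.57 (SE 0.48) with all samples and by -1.36 without replicate 2.

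Ube2c (the ubiquitin-conjugating enzyme that hands the first ubiquitin to substrates of the anaphase-promoting complex; NCBI Gene 68612) had -2.30, 0.15, -1.73 and -0.83 in untreated samples and -1.93, -3.03, -1.90 and -2.33 at day 1. Its 3 day 2 values were -0.99, -3.08 and -3.005, and its day 5 values were -0.13, -0.25 and 0.22. The untreated samples spanned more than the difference between any neighbouring groups, and 1 of them, with a value from a single technical replicate, reached the day 5 level. All day 5 samples lay above all day 1 and day 2 samples. Ube2c averaged -1.18 ± 1.07 (SD, n = 4) untreated, -2.30 ± 0.52 (n = 4) at day 1, -2.36 ± 1.18 (n = 3) at day 2 and -0.053 ± 0.24 (n = 3) at day 5. The day 5 mean was 2.24 above day 1 (SE 0.55; 4.74-fold) and 2.31 above day 2 (SE 0.58; 4.94-fold). Its excess over untreated was 1.12 (SE 0.55).

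Nusap1 (a microtubule-binding protein that bundles spindle fibres around chromosomes; NCBI Gene 108907) had log2 ratios of -2.82, -2.11, -2.35 and -1.85 untreated, and of -3.81, -4.01, -2.82 and -3.58 at day 1. It had -2.39, -4.10, -3.30 and -4.25 at day 2 and -1.76, -1.77 and -1.28 at day 5. Nusap1 was the only gene of this pattern with a value in all 15 samples. Its day 5 samples lay above all others, while the highest day 1 sample and the lowest untreated sample met at -2.82. Means were -2.28 ± 0.41 (SD, n = 4) untreated, -3.55 ± 0.52 (n = 4) at day 1, -3.51 ± 0.86 (n = 4) at day 2 and -1.60 ± 0.28 (n = 3) at day 5. Nusap1 at day 5 was 1.95 above day 1 (SE 0.38; 3.86-fold) and 1.90 above day 2 (SE 0.38; 3.74-fold). It exceeded untreated by 0.68 (SE 0.38).

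Smc4 (the ATPase core of condensin, which compacts chromosomes; NCBI Gene 70099) had -0.95, -0.79, -1.05 and -1.14 in untreated samples and -0.59, -0.57, -0.63 and -0.63 at day 1. At day 2 it had -0.71, -0.44, -0.40 and -0.35, and at day 5 it had -1.48, -1.38 and -1.09. Every day 1 and day 2 sample lay above every untreated sample, and the 2 lowest day 5 samples lay below every untreated sample. Group means were -0.98 ± 0.15 (SD, n = 4) untreated, -0.61 ± 0.030 (n = 4) at day 1, -0.48 ± 0.16 (n = 4) at day 2 and -1.32 ± 0.20 (n = 3) at day 5. Smc4 was 0.51 above untreated at day 2 (SE 0.12; 1.42-fold). Between day 2 and day 5 it changed by -0.84 (SE 0.12), a 1.79-fold lower ratio, with no overlap. The day 5 mean differed from untreated by -0.34 (SE 0.12) in the deposited values. After each column was centred and scaled, that difference was 0.004, so its direction depends on how columns are put on a common scale.

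Cks2 (a small subunit that binds cyclin-dependent kinases and is needed for cell cycle progression; NCBI Gene 66197) had -1.29, -1.05, -1.76 and -1.67 untreated and -1.01, -1.10, -1.32 and -1.23 at day 1. At day 2 its values were -0.60, -0.53, -0.86 and -0.67, and at day 5 they were -1.73, -1.56 and -0.94. The day 2 samples lay above all other samples, and the day 5 samples spanned about the range of the untreated ones. Means were -1.44 ± 0.33 (SD, n = 4), -1.17 ± 0.14 (n = 4), -0.66 ± 0.14 (n = 4) and -1.41 ± 0.42 (n = 3) over untreated, day 1, day 2 and day 5. Cks2 was 0.78 above untreated at day 2 (SE 0.18; 1.72-fold) and 0.74 lower at day 5 than at day 2 (a change of -0.74, SE 0.19). At day 5 it differed from untreated by 0.03 (SE 0.19). With centred and scaled columns this difference was 0.45, and that from day 1 turned from -0.24 to 0.07.

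**Figure D2:**
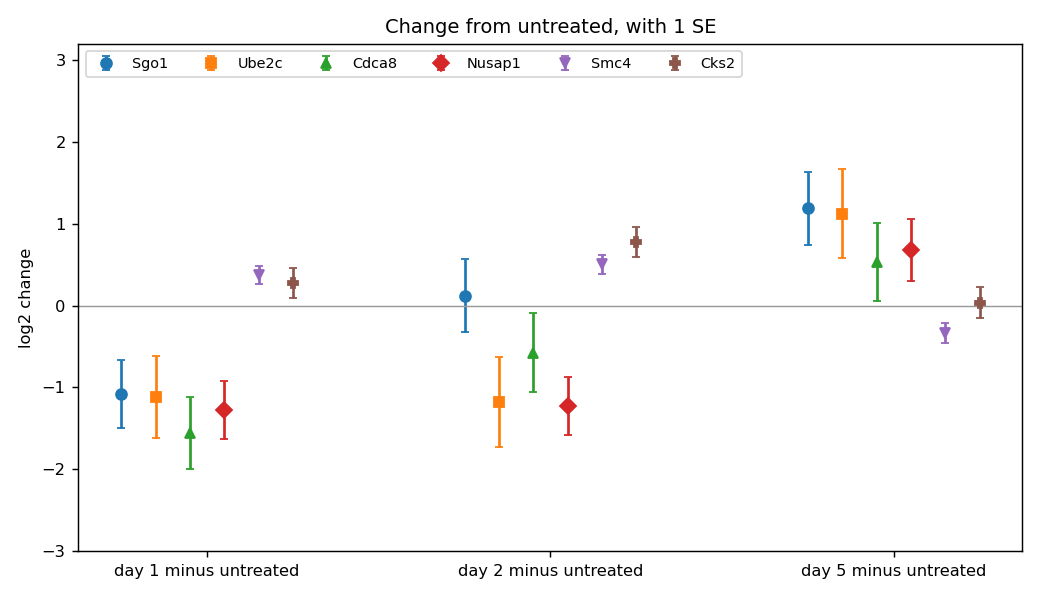
Change in log2 ratio from the untreated group for each of the 6 genes at days 1, 2 and 5, with points for the fitted difference and bars for 1 SE on either side. Sgo1, Ube2c, Cdca8 and Nusap1 are below 0 at day 1 and above 0 at day 5, and Smc4 and Cks2 are highest at day 2; the 3 sets of changes share the same untreated samples.

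Day 1 against untreated was the comparison that the choice of genes did not name, and it was tested across the 6515 features with enough values. The genes were still selected on measured levels in these samples with earlier results known, so this test supports nothing on its own. None of the 6 genes passed at an adjusted p under 0.05 (limma, Benjamini-Hochberg adjustment), and 5 of them, all but Cks2, had an unadjusted p under 0.05, as did 21.1% of all features. Nusap1 changed by -1.27 (SE 0.35, adjusted p = 0.0526 by limma), Cdca8 by -1.56 (SE 0.44, adjusted p = 0.0587 by limma) and Smc4 by 0.37 (SE 0.12, adjusted p = 0.073 by limma). Sgo1 changed by -1.08 (SE 0.41, adjusted p = 0.148 by limma), Ube2c by -1.12 (SE 0.51, adjusted p = 0.219 by limma) and Cks2 by 0.28 (SE 0.18, adjusted p = 0.399 by limma). The groups did not overlap for Cdca8, which was lower, and for Smc4, which was higher. Across the array 2.29% of features were called higher and 2.32% lower at day 1 by limma, and 10.5% were higher and 7.71% lower without overlap between the groups.

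For Nusap1, Cdca8 and Smc4, leaving out a single sample moved the day 1 result across the threshold. Over the alternatives the adjusted p by limma ran from 0.00118 to 0.16 for Nusap1, from 0.00843 to 0.157 for Cdca8 and from 0.00373 to 0.19 for Smc4. Nusap1 passed without day 1 replicate 3 (adjusted p = 0.0223 by limma), and without day 2 replicate 1 (0.0208), 2 (0.0472) or 4 (0.0457), which enter through the shared spread. Cdca8 passed without day 2 replicate 2 (adjusted p = 0.00987 by limma) or 4 (0.0416), and Smc4 passed without day 5 replicate 3 (0.0468). The direction of each of the 6 day 1 changes was the same in all alternatives run.

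The other comparisons are set against the array as a whole, since many features moved after treatment. Each is given with the share of all features called by limma and the share without overlap between the groups, which needs no test. Day 2 against untreated called 4.83% of features higher and 7.84% lower, with 11.2% higher and 10.2% lower without overlap, and of the 6 genes Smc4 and Cks2 were higher without overlap. From day 1 to day 2, where 0.537% of features were called higher and 0.614% lower (4.39% and 4.82% without overlap), Sgo1 and Cks2 were higher without overlap. Day 5 against untreated called 0.261% higher and 0.829% lower (6.63% and 6.95% without overlap), with Sgo1 and Nusap1 higher without overlap. Between day 2 and day 5 the array changed most, with 12.8% of features called higher and 12.7% lower (14.4% and 16% without overlap). There Ube2c and Nusap1 were higher, and Smc4 and Cks2 lower, without overlap. Day 5 against day 1, added after the values were seen, called 9.67% higher and 9.09% lower (14.5% and 16% without overlap), with Sgo1, Ube2c, Cdca8 and Nusap1 higher and Smc4 lower without overlap. These comparisons share samples with each other, and because the levels chose the genes, nothing is read from their counts against the array.

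Sgo1, Ube2c and Cdca8 were also the genes measured least precisely. Technical replicates of a sample differed by a median of 0.644 log2 units for Cdca8, 0.398 for Sgo1 and 0.196 for Ube2c, against 0.123 over all tested features. Only 3 of the 6515 tested features had a larger median difference than Cdca8, and 65 had a larger one than Sgo1. The largest single gap, 1.96, was that of Cdca8 in untreated replicate 4, at -0.10 and -2.06. Nusap1 (0.0709), Cks2 (0.0998) and Smc4 (0.0398) agreed more closely than the array as a whole. Cdca8 at day 5 against untreated was 0.333 from technical replicate 1 alone and 0.974 from technical replicate 2 alone.

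**Figure D3:**
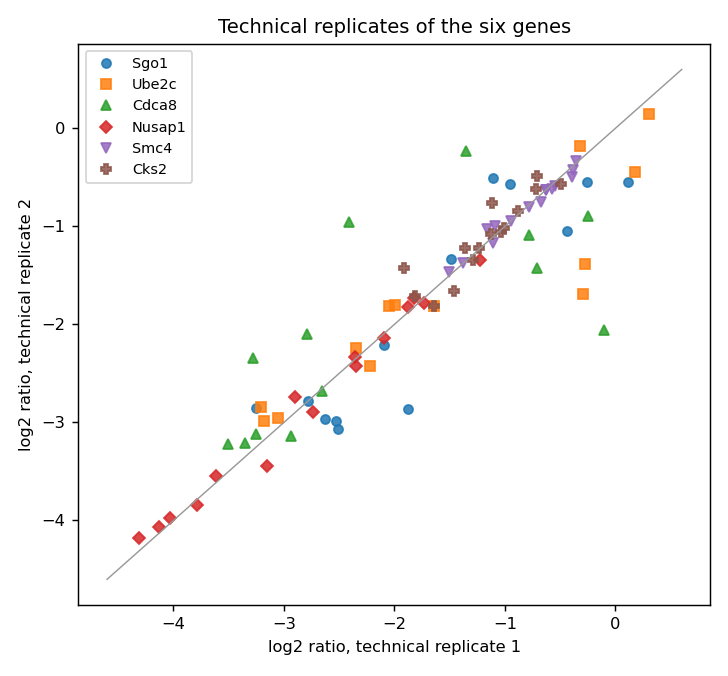
Log2 ratio of technical replicate 2 against technical replicate 1 for each of the 6 genes, 1 point per blood sample with both values, with the line of equality. Smc4, Cks2 and Nusap1 lie along the line, while Cdca8 and Sgo1 scatter about it with median differences of 0.644 and 0.398.

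Day 2 replicate 1 had no value for Sgo1, Ube2c and Cdca8. Its columns held the fewest values of all, and 1092 of the 6515 tested features were empty in it. Day 2 replicate 2 was the high sample in the same 3 genes, at -0.40, -0.99 and -0.57. For Nusap1, which was measured in both, replicate 1 was the highest day 2 sample at -2.39 and replicate 2 was low at -4.10. The day 2 level of Sgo1, Ube2c and Cdca8 thus rests on 3 samples, of which 1 differs from the other two by more than 1 log2 unit.

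Correlations over all samples largely restate the group means. Over 14 samples Cdca8 followed Ube2c (Pearson r = 0.847, Spearman rho = 0.802) and Sgo1 (r = 0.802, rho = 0.767), and Ube2c followed Nusap1 (r = 0.782, rho = 0.776). Smc4 and Cks2 went together (r = 0.764, rho = 0.70, 15 samples), and Smc4 ran opposite to Nusap1 (r = -0.849, rho = -0.904) and Ube2c (r = -0.702, rho = -0.732). After group means were taken out, Ube2c still followed Cdca8 (r = 0.804), Smc4 followed Cks2 (0.679) and Sgo1 followed Cdca8 (0.569). Day 2 replicate 2 lay far above the day 2 mean in Sgo1 (-0.40 against -1.64), Ube2c (-0.99 against -2.36) and Cdca8 (-0.57 against -2.14). The correlations among them were not recomputed without that sample. The other relations weakened or turned, except that of Sgo1 with Cks2, which grew. Nusap1 had r = 0.291 with Ube2c, 0.098 with Cdca8, -0.344 with Sgo1 and -0.372 with Smc4, and Ube2c had 0.147 with Smc4. Cks2 had r = 0.434 with Cdca8, 0.403 with Sgo1 and 0.382 with Ube2c, genes of the other time course. Before group means were taken out, these were -0.0939, 0.0151 and -0.288 in the same order. These are descriptions over samples that share arrays and time points, without a test.

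Few of the other genes of mitosis, replication and proliferation passed the test in any comparison. Of 149 listed genes besides the 6, 108 were on the array and 47 had enough values to be tested, among them 28 of the mitotic lists. Aurkb, Birc5, Bub1, Mki67 and Top2a were on the array with too few values. At day 1, 2 of the 47 rose and 0 fell, against 2.29% and 2.32% of all features. Zwint, a kinetochore protein, rose by 0.93 (SE 0.14, adjusted p = 0.00804 by limma) and Dut, which keeps uracil out of DNA, by 1.13 (SE 0.18, adjusted p = 0.00507 by limma). The median change of the 47 was -0.0527, with 18 above 0, against a median of 0.0316 over all features, and 7 (of 47) had an unadjusted p under 0.05, against 21.1% of all features.

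At day 2 none of the 47 passed by limma, where 4.83% of all features were called higher and 7.84% lower. Of the 47, 38 lay above 0 and their median was 0.277 against 0.0587 for all features. At an unadjusted p under 0.05 there were 11 of the 47, against 26.7% of all features. The count of listed genes passing by limma depended on the setting. With centred and scaled columns 11 genes passed, and with quantile normalization 7. Leaving out untreated replicate 2 gave 4, day 2 replicate 2 gave 3, day 5 replicate 2 or 3 gave 2, and day 2 replicate 1 or day 5 replicate 1 gave 1. Every one of the 7 tested spindle genes other than Nusap1 lay above 0 at day 2, none past the threshold, while Nusap1 was 1.23 below untreated (a change of -1.23, SE 0.35). From day 1 to day 2 none of the 47 passed by limma, where 0.537% of all features were called higher and 0.614% lower. Of the 47, 10 had an unadjusted p under 0.05 (11.7% of all features did). There were 37 above 0, with a median of 0.257 against -0.00298 for all features.

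At day 5 against untreated, Dut was the single listed gene that rose, by 1.20 (SE 0.19, adjusted p = 0.0043 by limma), and 0 fell. Across the array 0.261% of features were called higher and 0.829% lower. Of the 47, 33 lay above 0, with a median of 0.193 against 0.00439 for all features, and 5 had an unadjusted p under 0.05, against 17.4% of all features. Of the 7 tested spindle and cytokinesis genes other than Nusap1, 6 had point estimates above 0 without passing. In the anaphase-promoting complex list of Ube2c, 2 of the other 4 tested genes lay above 0. In the passenger complex and centromere list of Sgo1 and Cdca8, 2 of the other 3 did. The largest spindle changes were those of Prc1, which bundles the central spindle, at 1.25 (SE 0.63, adjusted p = 0.32 by limma) and Ect2, which starts cytokinesis, at 0.98 (SE 0.51, adjusted p = 0.327 by limma). Cdc20, the activator of the anaphase-promoting complex that works with Ube2c, was at -1.15 (SE 0.56) on day 1 and 0.10 (SE 0.61) on day 5. Incenp, the partner of Cdca8 in the passenger complex, was at -0.28 (SE 0.25) on day 5, with the sign of the change in Smc4 and not of that in Cdca8. Prc1, Ect2, Cdc20 and Incenp were singled out after their values were seen.

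Between day 2 and day 5, 2 of the 47 listed genes rose and 5 fell, where 12.8% of all features were called higher and 12.7% lower. Plk1, a kinase that drives mitotic entry, rose by 1.32 (SE 0.29, adjusted p = 0.00316 by limma), and Dut rose by 0.65 (SE 0.19, adjusted p = 0.0194 by limma). Incenp (-0.72), the cohesin core subunit Smc1a (-0.41), the centromere protein Cenpm (-0.39), the replication licensing factor Cdc6 (-0.92) and the DNA polymerase alpha subunit Pola2 (-0.67) fell, with adjusted p from limma of 0.0463, 0.0385, 0.0231, 0.0123 and 0.0225. The 47 had 22 changes above 0 and a median of -0.0285 against -0.0666 for all features. Fewer genes passed without day 5 replicate 1 (2) or without day 2 replicate 3 (3). Incenp fell while its partner Cdca8 was 1.11 higher (SE 0.51), and Smc1a, of the same ATPase family as Smc4, fell as Smc4 was lower. At day 5 against day 1, 34 of the 47 lay above 0 and the median was 0.188 against -0.0523. An unadjusted p under 0.05 by limma was found for 15 of the 47, against 34.1% of all features. Only 1 of the 47 passed, the spindle pole protein Numa1 (-0.70, adjusted p = 0.0368 by limma), where 9.67% of all features were called higher and 9.09% lower. That count went to 0 without day 1 replicate 1, 2 or 4, and to 2 when the sample left out was replicate 3 of the untreated group, replicates 2, 3 or 4 of day 2, or replicate 2 of day 5. It went to 4 when that sample was replicate 2 or 4 of the untreated group, the first of day 2, or the third of day 5.

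**Figure D4:**
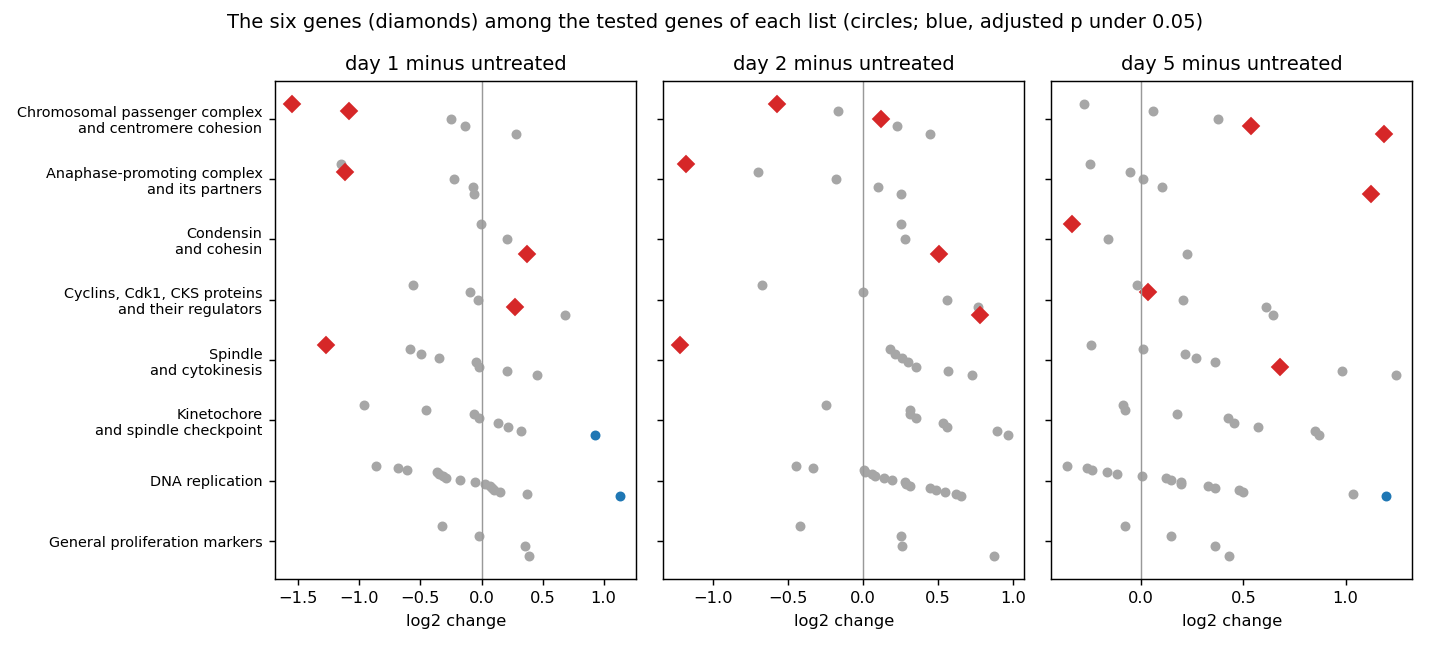
Change in log2 ratio from untreated at days 1, 2 and 5 for the 6 genes (diamonds) and for the tested genes of each mitotic, replication or proliferation list (circles), with circles in blue where the adjusted p was under 0.05. At day 1 and day 2 the lowest diamonds lie below 0 and the highest above it, and Dut and Zwint are the listed genes in blue.

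Among 3562 genes with 1 symbol and a value in every sample, those most like each of the 6 were ranked by Pearson r, over 15 samples for Smc4, Cks2 and Nusap1 and over 14 for the others. Nusap1 was followed most closely by Ncoa4 (r = 0.947), Pdia4 (0.904) and Fam210b (0.895). Ncoa4, a carrier that delivers ferritin for breakdown, had group means of -0.373 untreated, -1.41 at day 1, -1.50 at day 2 and 0.474 at day 5. Smc4 was most like the histone methyltransferase gene Kmt2a (0.958), Trim39 (0.949) and Krba1 (0.948). Cks2 was most like Fpr2 (0.894), a formyl peptide receptor of neutrophils, Nt5c2 (0.891) and Rbm39 (0.876). Sgo1 was most like Mgst3 (0.893), Minpp1 (0.868) and Cuedc2 (0.867), Ube2c like Snrnp25 (0.883), Creb3l4 (0.878) and Gja10 (0.873), and Cdca8 like Cul4a (0.933), Ddx54 (0.909) and Zdhhc6 (0.864). None of these 18 genes is in the mitotic lists. Besides the 6, only 28 genes of those lists were tested, and a candidate among the 3562 needed a value in every sample. Few could therefore have appeared, and nothing is read from their absence. The names depend on the measure and on single samples. By Spearman rho, 0 of the 3 named genes stayed among the first 3 for Sgo1, Smc4 and Cks2, and 1 for each of the others. Leaving out a day 5 sample kept 0 to 2 of 3 for Sgo1 (0 without replicate 1), 1 to 2 for Ube2c and Cks2, 2 for Cdca8 and Nusap1, and 2 to 3 for Smc4. The mean of Smc4, Cks2 and Nusap1, which joins opposing patterns, was most like Tpt1 (0.862), Apoo (0.845) and then Slc31a2, and next like Peg10, Ctse, Gad2, Fam186a, 1700012P22Rik, Prr23a3 and Mss51, the last at 0.802.

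Markers of several blood cell types moved across the same samples, and their part in the results was not tested. The mean log2 ratio of 10 tested erythroid markers (13 of 18 listed were on the array) ranged from -1.09 to -0.113 untreated, from -0.71 to -0.586 at day 1, from -1.09 to -0.669 at day 2 and from -0.171 to -0.0345 at day 5. It was highest at day 5, as were Nusap1, Sgo1, Ube2c and Cdca8. The lists of neutrophil precursor granules (median -2.16) and plasma cells (median 0.117) also had their highest group median at day 5. At day 5 against untreated, 0 of the 10 erythroid markers were called by limma, against 0.261% of all features higher and 0.829% lower. Alas2, the first enzyme of erythroid heme synthesis, fell by 2.83 at day 2 (SE 0.40, adjusted p = 0.000243 by limma) and was 3.57 higher at day 5 than at day 2 (SE 0.43, adjusted p = 3e-05 by limma), and Bnip3l moved with it. These were the 2 erythroid markers, of 10, called in each of those comparisons. Across the array 7.84% of features were called lower in the first and 12.8% higher in the second. Klf1, the master erythroid factor, had an estimate of 1.27 over untreated at day 5 (SE 1.00, adjusted p = 0.551 by limma) and was singled out after its values were seen. Its estimates over untreated were about as large at day 1 (1.215) and day 2 (1.306), and day 5 differed from day 2 by -0.034. The untreated mean of Klf1, -1.368, had an SD of 2.59 over 3 samples.

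Mature neutrophil markers, like Smc4 and Cks2, were highest at day 2, and so was the mean of the 3 tested pan-leukocyte genes. The mean of 6 tested mature neutrophil markers, of 11 listed, ranged from -0.458 to 0.0391 untreated, from 0.00616 to 0.365 at day 1, from 0.724 to 1.27 at day 2 and from -0.808 to -0.293 at day 5. Of the 6, 5 were called higher at day 2 against untreated by limma, where 4.83% of all features were. From day 2 to day 5, 4 of the 6 were called lower, where 12.7% of all features were. Csf3r, the receptor for granulocyte colony-stimulating factor, rose by 1.56 at day 2 (SE 0.21, adjusted p = 0.000174 by limma). Fpr2, the gene closest to Cks2, is among these markers and rose by 1.13 (SE 0.20, adjusted p = 0.00144 by limma). The mean over granule genes of neutrophil precursors, 4 tested of 12, lay between -3.20 and -2.15 in every sample, and none of the 4 was called in any comparison by limma (1 had an unadjusted p under 0.05 in each of day 1 and day 2 against untreated, and 0 in the others).

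Monocyte markers were lowest at day 2 (-0.243 to -0.127 over 6 genes, against 0.565 to 0.975 untreated), the reverse of Smc4 and Cks2. B cell markers lay at 0.303 to 0.706 untreated and -0.436 to -0.0394 at day 5, NK and cytotoxic markers at 0.538 to 1.40 and -0.144 to 0.0516, and T cell markers, of which 2 were tested, at 0.172 to 1.58 and -0.0682 to 0.741. Platelet markers were high throughout, at 2.27 to 2.52 untreated and 3.57 to 4.04 at day 1, and those of stem and progenitor cells ran from -0.522 to -0.212 untreated and from -0.0559 to 0.0764 at day 1, when Sgo1 and Cdca8 were lowest. Plasma cell markers lay between -0.428 and 0.423 over all samples. The pan-leukocyte genes Cd52, Cd53 and Lcp1, the 3 tested of 6, had a mean above 0 in all samples, while Ptprc, Coro1a and Laptm5 had too few values. That mean ranged from 0.488 to 0.826 untreated, 0.353 to 0.634 at day 1, 0.944 to 1.24 at day 2 and 0.261 to 0.84 at day 5.

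**Figure D5:**
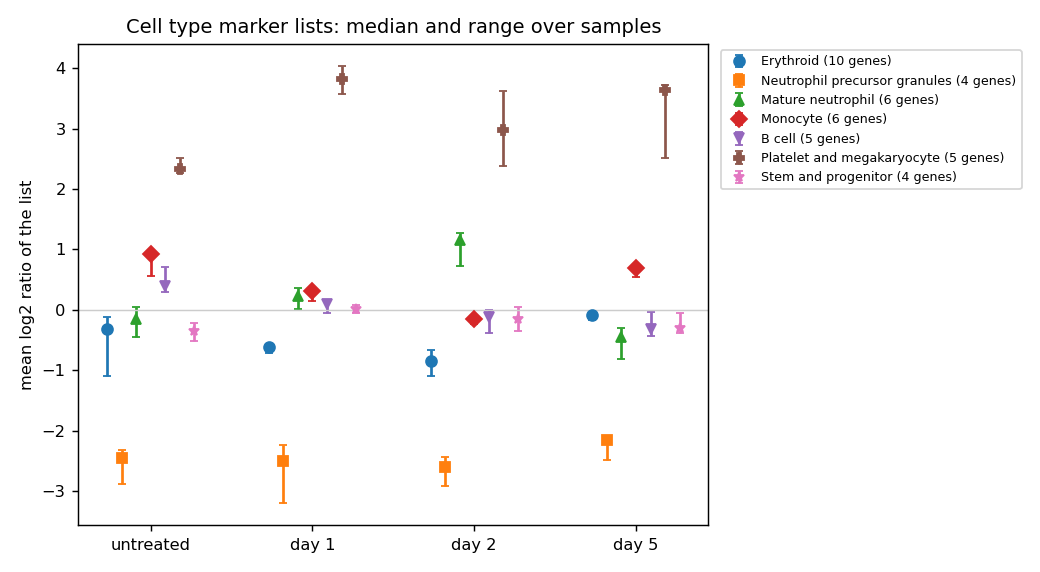
Mean log2 ratio over the tested genes of each of 7 marker lists by day after cyclophosphamide, with the median over samples as a point and the range as a bar. Erythroid and neutrophil precursor granule markers have their highest median at day 5, and mature neutrophil markers at day 2.

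The depth of these values is the number of arrays and of filled spots. Columns held between 5314 and 9398 values of 13443 probes, and the 15 pairs of technical replicates had r from 0.829 to 0.957 across probes, with a median of 0.89. The number of samples, 3 or 4 a group, limits the precision of every difference.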

How the data were processed

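RNA of 15 blood samples was measured in 30 columns, 2 technical replicates each, per the labels. The deposited values are log2 ratios of Cy5 (blood) over Cy3 (marrow pool), with the dyes per the labels. The sources used here do not give the authors' normalization, filters or log base. The highest value is 5.76 and a 16-bit scanner's log10 ratio could not pass 4.82, so base 2 was assumed, and base e cannot be told apart from it. Cy5 is blood on every array, so a dye effect is in each ratio.

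Technical replicates were averaged, then probes sharing 1 symbol. Of 13443 probes, 10032 had 1 symbol, 170 several and 3241 none. Features with at least 3 of 4 values (2 of 3 at day 5) were tested: 6515, with 4920 complete. Of the 6 genes, only Smc4, Cks2 and Nusap1 had all 15 values, and missing values were dropped, not imputed. Tests used limma 3.58.1 (R 4.3.3, statmod 1.5.0) with 4 group means over 15 samples, eBayes and Benjamini-Hochberg adjustment, called under 0.05, and were tested on simulated data. Each SE comes from that fit.

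The genes and lists were chosen with earlier results of these data known. A test of the 6 genes at day 2 had been planned and was left out for that reason. Named genes are the 6, listed genes called in a comparison, and the 3 most like each by Pearson r (10 for the mean). Prc1, Ect2, Cdc20, Klf1 and Incenp at day 5 fall outside this rule. Replicate numbers did not pair samples: residual correlations between same-numbered samples ran from -0.284 to 0.171, and 2 of 15 samples were most like their own number. Alternatives were scaling, quantile normalization, filters, fits of 2 groups, single technical replicates, a sample effect, a replicate block and leaving out samples. The probes come without a stated genome build. Promoters are from RefSeq on GRCm38.p6.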

Additional observations from a re-analysis of the deposited data

Results flagged for a closer look

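In Sgo1 at day 1, replicate 2 had a log2 ratio of -3.05, apart from the other 3 samples, which lay between -2.79 and -2.76. The gap filled 0.906 of the group's range, above Dixon's 95% critical value for 4 samples. It was the single such value among 15 groups of 4 samples examined for the 6 genes, and chance alone marks about 1 in 20 groups. The 4 samples as a group had the smallest spread of Sgo1 in any group (SD 0.14), and the gap is smaller than the median difference of 0.398 between technical replicates of this gene.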

How the results depend on the processing

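No tested change of the 6 genes changed direction in any alternative. Of the untested ones, these did: the sign was kept in 19 of 25 alternatives for Ube2c and 20 of 26 for Nusap1 at day 2 against day 1, in 21 of 25 for Sgo1 at day 2 against untreated, in 22 of 26 for Cks2 and 25 of 26 for Smc4 at day 5 against untreated, and in 25 of 26 for Cks2 at day 5 against day 1. At day 1, Cdca8 passed at -1.56 with centred and scaled columns, in fits of 2 groups and without day 2 replicates 1 and 2 (an alternative chosen after seeing the data), with -1.85 to -1.39 over single samples left out. Nusap1 passed at -1.05 with scaled columns, at -1.27 with complete features, in fits of 2 groups, with a random sample effect and without those 2 samples, and at -1.31 with technical replicate 2 (-1.52 to -1.12 with samples left out). Smc4 passed at 0.476 with scaled columns, 0.436 with quantile normalization and 0.374 in fits of 2 groups and with a sample effect (0.321 to 0.438). Scaling moved day 5 against untreated to 0.452 for Cks2, 1.26 for Nusap1 and 0.00412 for Smc4. Cdca8 at day 2 was -1.36 without replicate 2, alone or with replicate 1 (-1.36 to -0.051).

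Features called at day 1 (300 in the reported fit) numbered 521 with scaled columns, 578 in fits of 2 groups, 462 with quantile normalization, 715 with a sample effect and 199 with technical replicate 1. Leaving out samples gave 60 (day 1 replicate 2) to 438. At day 5 against untreated (71) there were 116 with complete features, 34 in fits of 2 groups, 111 with quantile normalization and 407 with a sample effect, and 27 (without day 5 replicate 1) to 224 (without replicate 3). Day 2 against day 1 (75) gave 5 in fits of 2 groups, 35 without a filter, 274 with a sample effect, 37 and 28 with technical replicate 1 or 2, 7 without the 2 day 2 samples, and 3 (without day 1 replicate 4) to 94. Day 5 against day 2 (1664) gave 935 in fits of 2 groups. Samples left out gave 529 (untreated replicate 4) to 942 at day 2, and 718 (day 5 replicate 1) to 1571 for day 5 against day 1.

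Other listed genes called at day 1 (2) were 1 with complete features and 4 in fits of 2 groups. At day 2 (0) they were 11 with scaled columns, 7 with quantile normalization, 4 with a sample effect, 2 with complete features, 1 with a robust prior, 2 and 1 with technical replicate 1 or 2, 3 without the 2 day 2 samples, and 0 to 4 with samples left out. For day 2 against day 1 (0) they were 1, 1 and 2 with scaled columns, quantile normalization and a sample effect. For day 5 against day 1 (1) they were 8, 4, 11, 6, 8 and 2 with scaled columns, complete features, fits of 2 groups, quantile normalization, a sample effect and technical replicate 2, 5 without the 2 day 2 samples, and 0 to 4. For day 5 against day 2 (7) they were 2 in fits of 2 groups and 2 to 9. For day 5 against untreated (1) they were 2 with a sample effect and 1 to 2. The cause of these shifts was not tested.

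With the replicate number as a block, 107 features were called at day 1 and 33 for day 2 against day 1, and other listed genes numbered 1 at day 2 and 0 for day 5 against day 1. The numbers do not pair the samples. Each of the 6 genes has 1 probe, so separate probes were not compared. The number of arrays limits what can be called, and signal over background is not given.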
